A study of Mus musculus with 12 samples.

Results

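The genes described here are 10 genes of neutrophil granules and the neutrophil surface, namely S100a8, S100a9, Lcn2, Ngp, Camp, Ltf, Csf3r, Elane, Mpo and Trem1. They were taken by gene symbol from the platform annotation of an Affymetrix array, and all 10 were found among the 24704 genes measured. Neutrophils are built in the bone marrow and receive their granules in sequence. Primary granules, with elastase and myeloperoxidase, come first, then specific granules with lactoferrin, lipocalin-2 and cathelicidin, while the cytosol fills with the S100A8 and S100A9 proteins. Circulating neutrophils have largely stopped transcribing the primary granule genes, and the lung holds a large pool of these cells in its capillaries. Lcn2 and Ltf are also transcribed by airway epithelium, where both proteins withhold iron from bacteria.

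Whole lungs of mice with floxed Nfat5 alleles were profiled on 12 arrays in 4 groups of 3. KO mice (Nfat5(EC)-/-) lacked Nfat5, which encodes a transcription factor of the response to high salt, in endothelial cells, and were kept in hypoxia for 21 days or in normoxia. Control mice (Nfat5fl/fl) were kept in the same 2 conditions. The KO mice had been injected with tamoxifen, 1 mg a day over 5 days, while the controls were given its solvent miglyol alone, so effects of tamoxifen and of the lost gene cannot be told apart. Males and females aged 10 to 12 weeks were used, and they had recovered for 2 to 3 weeks after the injections. The mean of 3 Y-linked genes was 5.34 and 5.36 on 2 of the 6 hypoxic arrays and 6.12 to 6.69 on 4 of the 6 normoxic arrays, and no more than 3.26 on the other arrays, so sex was not balanced between the oxygen groups. The lungs were perfused with Ringer solution at 4 °C before lysis, and the sources used here do not name the Cre driver. The design text counts 4 mice per group. It also states that preparations with contaminating tissue, or with an inadequate expression response to hypoxia, were left out, so the hypoxia groups were chosen in part on their expression.

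Levels are log2 values from RMA, which brings all arrays to 1 distribution, here with a median of 4.55 and a range of 2.41 to 13.7. The lowest correlation between arrays of the same group over all genes was 0.989. Nfat5 itself averaged 8.34 ± 0.15 in hypoxic KO lungs and 8.43 ± 0.24 in hypoxic control lungs, and 8.67 ± 0.11 in normoxic KO lungs and 9.11 ± 0.25 in normoxic control lungs (SD, n = 3 each), and the KO minus control difference passed the test in neither oxygen state (adjusted p of 0.974 and 0.620, limma). Whole lung also holds the Nfat5 RNA of other cells, and whether the probes lie in the deleted part is not known here. Ucp1, a brown fat gene, was high on 2 arrays, normoxic KO replicate 2 and hypoxic control replicate 1, and each hypoxia result was also computed without them. Heart muscle genes moved with oxygen as well: Nppa, an atrial hormone gene, changed by -1.89 ± 0.49 and Myl7, an atrial myosin gene, by -0.94 ± 0.26 over both genotypes (adjusted p = 0.0265 and 0.0314, limma), the 2 of 10 markers of other tissues that were called, both lower. The mean of these 10 markers was 4.47 to 4.67 in hypoxic KO lungs, against 4.89 to 6.91 in normoxic KO lungs, and 4.77 to 5.67 in hypoxic control lungs, against 4.82 to 5.02 in normoxic control lungs. Over all genes 7.40% were called lower with hypoxia over both genotypes. The part of heart tissue in the results was not tested. A probe set's level depends on its own probes, so levels are compared between samples, and a rank on the array is given only to show where a gene lies.

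Most of the neutrophil genes lay low on every array. Of the 10, 7 were under the array median on all 12 arrays, and 5 (S100a8, Ngp, Camp, Elane and Mpo) never reached 4, a level that 36.2% of all genes never reached. S100a8 lay between percentiles 18.5 and 42.5 of the array and S100a9 between 29.6 and 46.7. Both are among the most abundant transcripts of neutrophils. Ly6g, which defines mouse neutrophils, lay between 2.83 and 3.33. The remaining 3 genes stood higher: Csf3r at percentiles 59.4 to 73.9, Ltf at 52.8 to 90.0, and Lcn2 at 99.3 to 99.9. These levels do not show how much neutrophil RNA the perfused lungs held, and the genes are treated one by one. Whether low RNA or insensitive probe sets gave the low values was not tested, as the values carry no detection call.

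**Figure D1:**
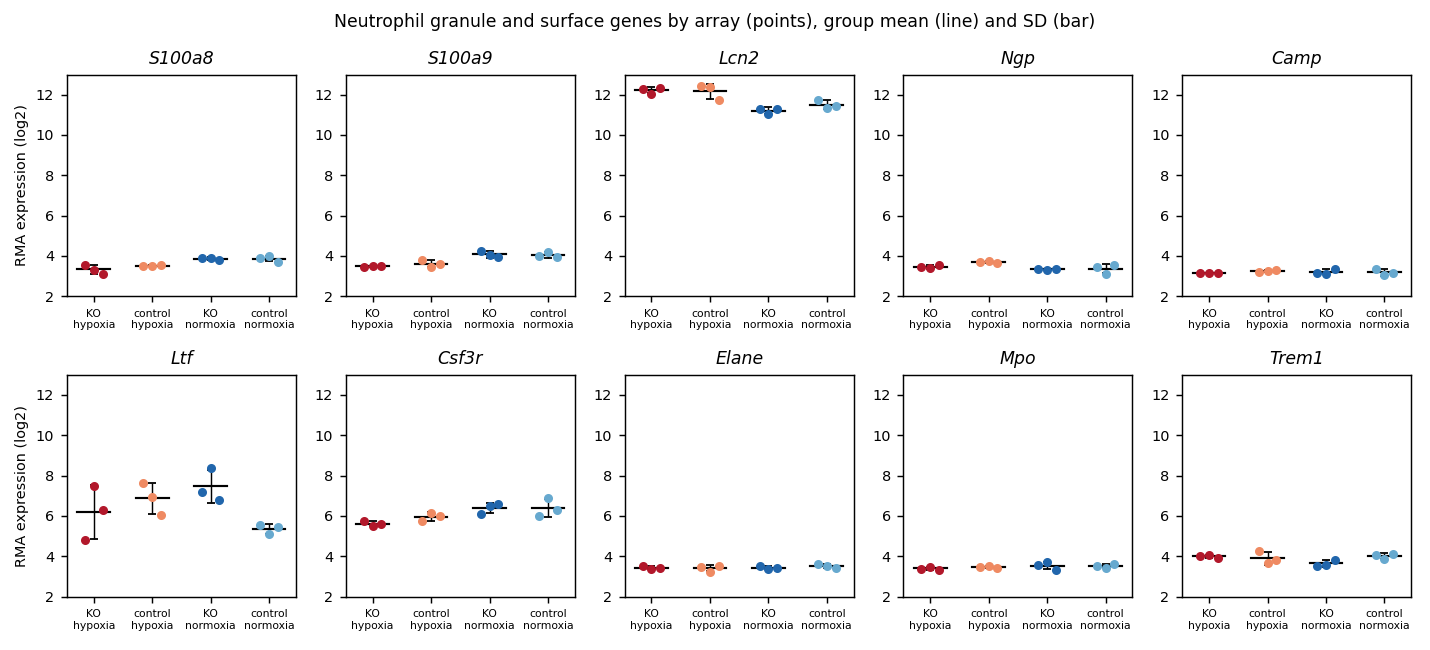
RMA expression (log2) of the 10 genes on the 12 arrays, with a point per array, a line at the group mean and a bar of 1 SD (n = 3). Lcn2 lies above 11 on every array and is higher in hypoxia, Ltf spreads from 4.81 to 8.40, and S100a8, Ngp, Camp, Elane and Mpo stay under 4 throughout.

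The genes that passed for hypoxia against normoxia did not all differ in 1 direction. With both genotypes in 1 comparison, Lcn2 rose, S100a8, S100a9 and Csf3r fell, and the other 6 did not pass the test (limma, Benjamini-Hochberg adjusted p under 0.05 over all genes). Thus 4 of the 10 were called, where 14.7% of all genes were called in this comparison, 7.27% higher and 7.40% lower. Their median change was -0.02, beside 0.01 over all genes. Because whole lung was measured, fewer cells of a type and less RNA per cell cannot be told apart. Within KO lungs 3 were called (Lcn2 higher, S100a8 and S100a9 lower), against 1.14% of all genes (0.640% higher, 0.502% lower), and within control lungs 2 were called (Lcn2 higher, S100a9 lower), against 11.5% of all genes (5.36% higher, 6.14% lower). The arrays of hypoxic and normoxic lungs did not overlap for 6 of the 10 genes in KO lungs, 3 higher and 3 lower in hypoxia, where 19.8% of all genes did not overlap (10.9% higher, 8.97% lower). In control lungs 4 of the 10 did not overlap, 2 higher and 2 lower, where the share was 27.7% (14.0% higher, 13.7% lower).

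**Figure D2:**
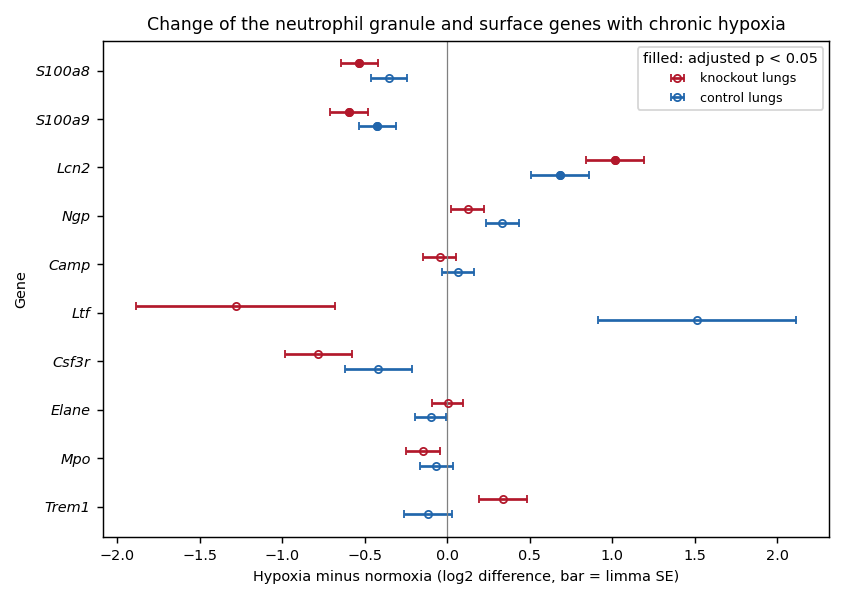
Hypoxia minus normoxia difference (log2) of each gene in KO lungs and in control lungs, with bars of 1 standard error from limma and filled points for an adjusted p under 0.05. Lcn2 is higher and S100a9 lower in both genotypes, with filled points, and Ltf has opposite signs in the 2 genotypes with the widest bars.

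S100a8 and S100a9 encode the 2 subunits of calprotectin, a calcium- and zinc-binding complex that is released by activated neutrophils and signals through Toll-like receptor 4. The genes are neighbours on chromosome 3. Their upstream sequences are shown because both genes were called lower in hypoxia over both genotypes. Each is given as the 250 bases before the transcription start, 5′ to 3′ on the gene's strand (RefSeq, GRCm38.p6). S100a8 lies at chr3:90668821-90669070 on the plus strand and S100a9 at chr3:90695722-90695971 on the minus strand. Capitals mark TATAAA, searched on the gene's strand, and TTNCNNAA, a pattern bound by C/EBP factors of the granulocyte lineage, searched on both strands.
S100a8 promoter: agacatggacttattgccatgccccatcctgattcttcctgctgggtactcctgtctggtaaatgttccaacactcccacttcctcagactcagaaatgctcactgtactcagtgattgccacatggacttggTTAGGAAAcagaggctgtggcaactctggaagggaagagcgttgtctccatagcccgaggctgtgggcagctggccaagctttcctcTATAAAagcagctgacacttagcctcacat
S100a9 promoter: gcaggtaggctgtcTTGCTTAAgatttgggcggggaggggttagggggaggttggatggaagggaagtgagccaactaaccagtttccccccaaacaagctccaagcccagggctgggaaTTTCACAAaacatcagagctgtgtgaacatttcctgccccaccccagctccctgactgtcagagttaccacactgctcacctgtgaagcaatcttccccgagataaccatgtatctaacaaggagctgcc
The S100a8 window held TATAAA at -30 to -25, counted from -1 at the base before the start, and a C/EBP-type match at -117 to -110. The S100a9 window held C/EBP-type matches at -236 to -229 and -130 to -123. These letters are common, as 7.59% of 32851 promoters held TATAAA and 36.8% held TTNCNNAA. Of the 10 neutrophil genes, 1 held TATAAA and 6 held TTNCNNAA. ACGTG, the core bound by hypoxia-inducible factors, was in 1 (Ngp) and in 16.6% of promoters, and TGGAAA, the core bound by NFAT5, was in 1 (Trem1) and in 18.6%, both searched on both strands.

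S100a8 was at 3.55, 3.32 and 3.12 in hypoxic KO lungs, against 3.91, 3.89 and 3.79 in normoxic KO lungs. Control lungs had 3.52, 3.49 and 3.53 in hypoxia, against 3.91, 3.99 and 3.71 in normoxia. All 6 hypoxic arrays lay below all 6 normoxic arrays. S100a8 fell by 0.44 ± 0.08 (SE) over both genotypes, at levels that cannot be shown to lie above background, so no fold is given (adjusted p = 0.00457, limma; two-sided exact permutation p = 0.005, the smallest the design allows). The fall within KO lungs was -0.53 ± 0.11 (adjusted p = 0.0463, limma), and in control lungs the difference of -0.35 ± 0.11 did not pass (adjusted p = 0.0593, limma).

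S100a9 followed the same order, with 3.47, 3.49 and 3.50 in hypoxic KO lungs, against 4.26, 4.03 and 3.95 in normoxic KO lungs. Hypoxic control lungs had 3.80, 3.43 and 3.62, against 3.97, 4.19 and 3.97 in normoxic control lungs. Again no hypoxic array reached a normoxic one. S100a9 fell by 0.51 ± 0.08 (SE) over both genotypes, at levels with the same limit (adjusted p = 0.00271, limma; exact permutation p = 0.005). Within genotypes it changed by -0.60 ± 0.11 in KO lungs and -0.42 ± 0.11 in control lungs (adjusted p = 0.0343 and 0.0339, limma). The deviations of the 2 genes from their group means over the 12 arrays gave r = 0.274 (permutation p = 0.174, adjusted 0.698 over 4 gene pairs) and rho = 0.364 (p = 0.201, adjusted 0.401). With the 2 arrays most distant from the median left out, r was 0.266.

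Both calls over the 2 genotypes held when any 1 of the 12 arrays was left out, with adjusted p of 0.00318 to 0.0138 for S100a8 and 0.00241 to 0.00869 for S100a9 (limma). The calls within a genotype were more fragile. In KO lungs the S100a8 call stood without hypoxic KO replicate 2 and was lost without any of the other 5 arrays (adjusted p of 0.0903 to 0.172, limma), and S100a9 was lost without any 1 of the 6 (adjusted p of 0.0515 to 0.116, limma). In control lungs S100a9 was lost without hypoxic control replicate 2 or 4 or normoxic control replicate 1 or 2 (adjusted p of 0.0701 to 0.134, limma), and S100a8 passed only without normoxic control replicate 4 (adjusted p = 0.0302). With the Y-linked mean as a covariate the calls within a genotype were lost for S100a8 in KO lungs (adjusted p = 0.104) and for S100a9 in KO lungs (0.0620) and control lungs (0.0572), and with a replicate block likewise (0.155, 0.177 and 0.0617, limma). Both KO calls were lost without the Ucp1-high arrays (0.197 for S100a8 and 0.0851 for S100a9), and a fit of the compared groups alone ended those of S100a8 in KO lungs (0.106) and S100a9 in control lungs (0.0957). With the mean of nuclear noncoding RNAs as a covariate all 3 were lost (0.155, 0.155 and 0.900).

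Among 2787 genes that varied over the arrays, those with the pattern most like S100a8 were Stap1 (Pearson r = 0.967), Clec2i (0.945), Nfkbiz (0.936), Adgre4 (0.932), Bank1 (0.931) and Abcg3 (0.927). The correlations run over the same 12 arrays, whose oxygen groups differ for S100a8, and carry no test. Other blood cell markers moved in the same samples, where 7.27% of all genes were called higher and 7.40% lower over both genotypes. Of 11 lymphocyte markers measured, 4 fell over both genotypes and 0 rose, among them the B cell genes Ms4a1 (-1.18 ± 0.17) and Pax5 (-0.93 ± 0.12; adjusted p = 0.00198 and 0.000940, limma). The mean level of these markers ranged from 5.42 to 5.74 in hypoxic KO lungs, against 5.91 to 6.19 in normoxic KO lungs, and from 5.56 to 5.81 in hypoxic control lungs, against 5.89 to 6.09 in normoxic control lungs. Of 12 monocyte markers 5 fell, including Ccr2 (-0.92 ± 0.16) and Ms4a4c (-1.02 ± 0.16), and 2 rose. The hypoxic arrays of Ms4a4c lay between 3.44 and 4.09, levels that cannot be shown to lie above background. Fn1 and Chil3 of the same list were higher in hypoxia. Fn1 averaged 11.08 against 10.42 in normoxia in KO lungs and 11.20 against 10.31 in control lungs. Chil3 averaged 10.52 against 9.81 in KO lungs and 10.10 against 9.42 in control lungs. Of 12 platelet markers 3 fell and 0 rose. Of 8 erythroid markers measured 0 passed in limma (lowest unadjusted p 0.0318, for Bpgm), with means of 4.99 to 5.45 in hypoxic KO lungs, 5.18 to 5.34 in hypoxic control lungs, 5.00 to 5.55 in normoxic KO lungs and 4.97 to 5.48 in normoxic control lungs. Their part in the S100a8 and S100a9 result was not tested.

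Of the specific granule genes Lcn2, Ltf, Ngp and Camp, Lcn2 rose with hypoxia and the other 3 passed in no comparison. Lcn2 encodes lipocalin-2, which binds the siderophores that bacteria use to take up iron, and Ltf encodes lactoferrin, which binds iron itself. The upstream windows of these 2 are printed because the results on granule proteins turn on them, with the same patterns in capitals. Lcn2 lies at chr2:32387740-32387989 on the minus strand and Ltf at chr9:111019042-111019291 on the plus strand (RefSeq, GRCm38.p6).
Lcn2 promoter: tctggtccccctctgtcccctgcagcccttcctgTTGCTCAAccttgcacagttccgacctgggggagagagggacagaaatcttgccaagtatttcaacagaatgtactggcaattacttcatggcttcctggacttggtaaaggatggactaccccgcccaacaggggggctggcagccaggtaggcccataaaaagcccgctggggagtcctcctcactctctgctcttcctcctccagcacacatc
Ltf promoter: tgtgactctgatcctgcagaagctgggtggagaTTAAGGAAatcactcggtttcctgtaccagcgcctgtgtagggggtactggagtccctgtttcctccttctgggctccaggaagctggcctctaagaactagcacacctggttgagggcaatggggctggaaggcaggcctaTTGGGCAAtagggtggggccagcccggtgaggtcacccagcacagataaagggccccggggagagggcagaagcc
The Lcn2 window held 1 C/EBP-type match, at -216 to -209, and the Ltf window 2, at -217 to -210 and -75 to -68.

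Lcn2 was at 12.29, 12.05 and 12.35 in hypoxic KO lungs, against 11.30, 11.03 and 11.31 in normoxic KO lungs. In control lungs it was at 12.42, 12.37 and 11.75 in hypoxia, against 11.75, 11.32 and 11.42 in normoxia. The KO groups were fully apart, while the lowest hypoxic control array equalled the highest normoxic one. Lcn2 rose by 0.85 ± 0.13 (SE) over both genotypes, 1.80-fold (adjusted p = 0.00204, limma; exact permutation p = 0.01). The rise was 1.02 ± 0.18 in KO lungs, 2.02-fold (adjusted p = 0.0211, limma), and 0.68 ± 0.18 in control lungs, 1.60-fold (adjusted p = 0.0311, limma; exact permutation p = 0.2). The call over both genotypes held without any 1 array (adjusted p of 0.000742 to 0.00729, limma). In KO lungs it was lost without any 1 array except hypoxic KO replicate 3 (adjusted p up to 0.105), and in control lungs without hypoxic replicate 1 or 2 or normoxic replicate 2 or 4 (adjusted p up to 0.124). The KO call was also lost with a replicate block (adjusted p = 0.0611), without the Ucp1-high arrays (0.102) and with the mean of nuclear noncoding RNAs as a covariate (0.120), and the control call in a fit of the control groups alone (0.0936), with array weights (0.112), without the Ucp1-high arrays (0.0813) and with the Y-linked mean (0.0620) or the nuclear RNA mean (0.918) as a covariate (limma).

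Markers of the other lung cells that can hold Lcn2 RNA differed in how they moved with hypoxia. Over both genotypes 7.27% of all genes were called higher and 7.40% lower. Of 11 alveolar macrophage markers measured, 7 rose over both genotypes and 0 fell, among them Ctsk (0.98 ± 0.12), Mrc1 (0.46 ± 0.07) and Itgax (0.57 ± 0.11). Their mean level was 7.62 to 7.77 in hypoxic KO lungs, against 7.25 to 7.44 in normoxic KO lungs, and 7.52 to 7.69 in hypoxic control lungs, against 6.96 to 7.28 in normoxic control lungs. Of 10 alveolar type 2 markers 2 rose, including the protease Napsa (0.51 ± 0.08), and Sftpc, which defines these cells, was at 13.44 on 10 of the 12 arrays, near the top of the scale, where a difference cannot be read. Of 12 airway secretory markers 1 rose and 1 fell: Reg3g, an antibacterial lectin, by 1.05 ± 0.22 and the secretoglobin Scgb3a2 at -0.53 ± 0.09 (adjusted p = 0.00932 and 0.00498, limma). The mean of the 12 was 9.13 to 9.50 in hypoxic KO lungs, against 9.30 to 9.52 in normoxic KO lungs. In control lungs it was 9.12 to 9.65 in hypoxia, against 8.85 to 9.17 in normoxia. Which cells carried the Lcn2 RNA cannot be told apart in whole lung, and the part of these cells was not tested.

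Ltf was the most variable of the 10 genes, with a span of 3.59 over the arrays. It was at 4.81, 7.46 and 6.30 in hypoxic KO lungs, against 7.21, 8.40 and 6.81 in normoxic KO lungs. In control lungs it was at 7.62, 6.95 and 6.06 in hypoxia, against 5.57, 5.08 and 5.43 in normoxia. The 3 normoxic control arrays were the lowest group, apart from all other arrays except hypoxic KO replicate 2. No comparison of Ltf passed the test. Its hypoxia difference was -1.28 ± 0.60 in KO lungs and 1.51 ± 0.60 in control lungs (adjusted p = 0.411 and 0.126, limma), and 0.12 ± 0.43 over both (adjusted p = 0.900).

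The SDs of Ltf within groups were 1.33 in hypoxic KO lungs, 0.78 in hypoxic control lungs, 0.83 in normoxic KO lungs and 0.25 in normoxic control lungs. Bpifa1, an abundant airway secretory protein gene chosen for this comparison after its values were seen, varied over the same arrays. It was at 9.99, 11.80 and 10.53 in hypoxic KO lungs, against 11.81, 12.55 and 11.77 in normoxic KO lungs. Control lungs had Bpifa1 at 11.73, 10.60 and 10.67 in hypoxia, against 11.17, 10.62 and 10.60 in normoxia. In each of the 4 groups the array with the highest Ltf also had the highest Bpifa1. The deviations of Lcn2 and Ltf from their group means correlated at r = 0.054 (permutation p = 0.873, adjusted 0.873) and rho = 0.224 (p = 0.498, adjusted 0.521; r = 0.060 without 2 arrays). The mean of the 12 airway markers ranged from 9.13 to 9.50 in hypoxic KO lungs, 9.12 to 9.65 in hypoxic control lungs, 9.30 to 9.52 in normoxic KO lungs and 8.85 to 9.17 in normoxic control lungs. It was highest on the array with the highest Ltf in hypoxic KO and normoxic control lungs only. The array with the highest Ltf had an airway mean of 9.62 in hypoxic control lungs and 9.51 in normoxic KO lungs, just under the highest. The part of the airway share of each sample in the Ltf values was not tested.

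**Figure D3:**
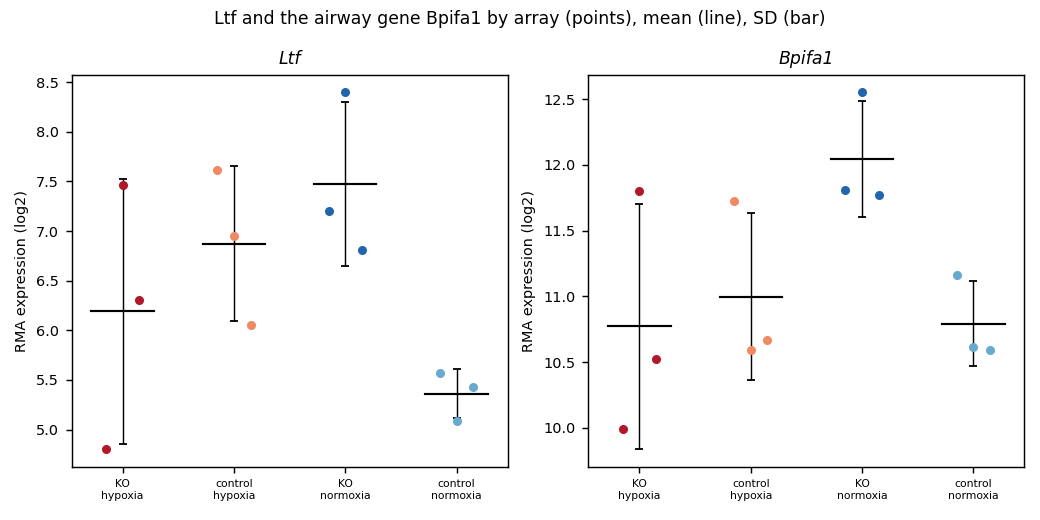
RMA expression (log2) of Ltf and of the airway gene Bpifa1 on the 12 arrays, with a point per array in the same left-to-right order in both panels, a line at the group mean and a bar of 1 SD (n = 3). In hypoxic KO lungs the array at 7.46 for Ltf is also the one at 11.80 for Bpifa1.

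Ngp encodes a cystatin-like protein of mouse neutrophil granules. It was at 3.45, 3.38 and 3.54 in hypoxic KO lungs, against 3.34, 3.33 and 3.34 in normoxic KO lungs. Control lungs had values of 3.68, 3.76 and 3.66 in hypoxia, against 3.44, 3.13 and 3.54 in normoxia. Hypoxic arrays were above normoxic ones in each genotype, but the differences of 0.12 ± 0.10 and 0.33 ± 0.10 did not pass (adjusted p = 0.700 in KO lungs and 0.0542 in control lungs, limma). Over both genotypes the difference was 0.23 ± 0.07 (adjusted p = 0.0524, limma; exact permutation p = 0.005), and it passed without normoxic control replicate 4 (0.27, adjusted p = 0.0214).

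Camp, the cathelicidin antimicrobial peptide gene, lay between 3.05 and 3.38 on all arrays. Its differences between groups ran from -0.09 to 0.07 (adjusted p of 0.719 or more, limma). Deviations of Ngp and Camp from their group means gave r = 0.369 (permutation p = 0.629, adjusted 0.838) and rho = 0.294 (p = 0.521, adjusted 0.521), and r was 0.038 with the 2 most distant arrays left out.

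No comparison of the primary granule genes passed the test. Elane encodes neutrophil elastase and lay between 3.23 and 3.60, with group differences from -0.10 to 0.02. Mpo encodes myeloperoxidase, which makes hypochlorous acid, and lay between 3.31 and 3.71, with differences from -0.15 to 0.02. The adjusted p was 0.535 or more for Elane and 0.619 or more for Mpo (limma). Their deviations from group means gave r = -0.258 (permutation p = 0.397, adjusted 0.795; -0.242 without 2 arrays) and rho = -0.434 (p = 0.190, adjusted 0.401). The genes whose pattern over the 12 arrays was most like Mpo were Amy1 (Pearson r = 0.834), Fosb (0.764), Trim5 (0.741), Actr6 (0.727), Atf3 (0.713) and Adss (0.711), lower values than those reached for S100a8.

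Csf3r encodes the receptor for granulocyte colony-stimulating factor, the main growth factor of neutrophils. It was at 5.76, 5.50 and 5.58 in hypoxic KO lungs, against 6.11, 6.48 and 6.59 in normoxic KO lungs. In control lungs it was at 5.74, 6.15 and 6.0 in hypoxia, against 5.97, 6.87 and 6.31 in normoxia. The KO groups were apart and the control groups overlapped. Csf3r fell by 0.60 ± 0.14 (SE) over both genotypes, a 1.52-fold decrease (adjusted p = 0.0182, limma; exact permutation p = 0.015), and this call held without any 1 array (adjusted p of 0.0102 to 0.0461). It was lost without both Ucp1-high arrays (-0.52, adjusted p = 0.0733, limma) and with the mean of 3 Y-linked genes as a covariate (-0.42, adjusted p = 0.0539). Within genotypes the differences of -0.78 ± 0.20 and -0.42 ± 0.20 did not pass (adjusted p = 0.106 in KO lungs and 0.211 in control lungs, limma). Its ligand gene Csf3 was at 0.07 ± 0.10 over both genotypes (adjusted p = 0.716, limma; not among the genes picked by rule).

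Trem1 encodes a surface receptor that amplifies inflammatory signals through the adaptor DAP12. It was at 4.01, 4.05 and 3.90 in hypoxic KO lungs, against 3.53, 3.59 and 3.84 in normoxic KO lungs. In control lungs it was at 4.24, 3.64 and 3.80 in hypoxia, against 4.07, 3.84 and 4.12 in normoxia. The KO groups did not overlap and the control groups did. The differences of 0.34 ± 0.15 in KO lungs and -0.12 ± 0.15 in control lungs did not pass (adjusted p = 0.360 and 0.653, limma).

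Nuclear noncoding RNAs moved with oxygen as well, where 7.40% of all genes were called lower over both genotypes. Of 8 measured, 5 fell over both genotypes, and their mean level was 6.41 to 6.84 in hypoxic KO lungs, against 6.78 to 7.23 in normoxic KO lungs, and 6.32 to 6.60 in hypoxic control lungs, against 7.10 to 7.47 in normoxic control lungs. With that mean as a covariate the hypoxia changes over both genotypes were -0.46 for S100a8, -0.40 for S100a9, 0.64 for Lcn2 and -0.58 for Csf3r, and none of the 4 passed (adjusted p of 0.475 to 0.703, limma), when 9 of all genes did. Without the covariate the changes were -0.44, -0.51, 0.85 and -0.60. The covariate itself differed with oxygen, without overlap in control lungs. This fit therefore separates it poorly from oxygen, and the lost calls do not decide between them.

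Of 27 other granule protein genes measured, 6 rose over both genotypes and 0 fell, where 7.27% of all genes rose and 7.40% fell. The median change of the 27 was 0.08, beside 0.01 over all genes. Lrg1, which encodes a leucine-rich glycoprotein of granules and endothelium, rose by 1.33 ± 0.20, 2.51-fold (adjusted p = 0.00204, limma), and by 1.33 in each genotype. Its arrays were at 8.94, 8.43 and 8.94 in hypoxic KO lungs, against 7.49, 7.19 and 7.64 in normoxic KO lungs. Chil3, a chitinase-like gene that alveolar macrophages also express, rose by 0.69 ± 0.09, the peptidoglycan receptor gene Pglyrp1 by 0.57 ± 0.13, and Padi4, whose enzyme citrullinates histones during extracellular trap formation, by 0.23 ± 0.07 (adjusted p = 0.00132, 0.0129 and 0.0461, limma). Padi4 lay between 2.96 and 3.57 on all arrays, levels that cannot be shown to lie above background. Retnlg, another neutrophil marker, was at -0.34 ± 0.11 and did not pass (adjusted p = 0.0690), and Ly6g was at -0.13 ± 0.09.

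Of 32 neutrophil surface receptor genes measured, 6 rose and 2 fell over both genotypes, where 7.27% of all genes rose and 7.40% fell. The median of the 32 was 0.00, beside 0.01 over all genes. Cxcr1, a chemokine receptor gene, was at 5.19, 4.54 and 5.50 in hypoxic KO lungs, against 4.01, 3.82 and 4.43 in normoxic KO lungs, and at 5.71, 5.41 and 4.99 in hypoxic control lungs, against 3.75, 3.95 and 4.20 in normoxic control lungs. It rose by 1.19 ± 0.18 (adjusted p = 0.00217, limma). Its normoxic arrays all lay under the median of 4.55, at levels that cannot be shown to lie above background, so no fold is given. Cxcr2, the related receptor typical of circulating mouse neutrophils, was at -0.42 ± 0.17 and did not pass (adjusted p = 0.113, limma). Trem2, a macrophage relative of Trem1, rose by 0.95 ± 0.13, and the integrin gene Itgb2 by 0.37 ± 0.09 (adjusted p = 0.00129 and 0.0222, limma). Tlr4, the receptor through which calprotectin signals, was at -0.23 ± 0.10 over both genotypes (adjusted p = 0.156, limma). Within control lungs it was called lower in hypoxia, at 6.83 to 7.21 against 7.48 to 7.65 in normoxia (adjusted p = 0.0302, limma). In KO lungs it was not called, at 7.10 to 7.68 in hypoxia against 7.17 to 7.35 in normoxia.

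Of 20 genes for recruitment and growth factors, 5 rose and 3 fell over both genotypes, with a median of 0.07. The shares over all genes, 7.27% higher and 7.40% lower, stand beside this and each list count that follows. Cxcl12, the chemokine that retains neutrophils in marrow, rose by 1.06 ± 0.10, 2.09-fold (adjusted p = 0.000165, limma). Lbp, the lipopolysaccharide-binding protein gene, rose by 0.56 ± 0.06 and Csf2, which encodes the growth factor GM-CSF, by 0.32 ± 0.07, while the lung chemokine gene Cxcl15 fell, with -0.34 ± 0.06 (adjusted p = 0.000384, 0.0143 and 0.00614, limma). Csf2 lay between 3.66 and 4.34 on all arrays, levels that cannot be shown to lie above background. Of 10 granulocyte transcription factors 0 passed over both genotypes in limma, the lowest unadjusted p being 0.00755 for Cebpa (0.26 ± 0.08). Within control lungs 1 of the 10 was called, Cebpa, higher in hypoxia (adjusted p = 0.0380, limma), where 5.36% of all genes were called higher. Over both genotypes 1 of 5 NADPH oxidase genes rose, Cyba, by 0.41 ± 0.11 (adjusted p = 0.0317, limma). Of 8 genes for proposed receptors of the granule proteins 1 rose and 2 fell: the macrophage gene Cd68 by 0.85 ± 0.12, the scavenger receptor Cd36 at -0.65 ± 0.06 and the lymphocyte activation gene Cd69 at -0.66 ± 0.15 (adjusted p = 0.00171, 0.000231 and 0.0153, limma). Of 16 eosinophil, basophil and mast cell markers 1 rose and 1 fell, and 11 of them stayed under 4 on all arrays.

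**Figure D4:**
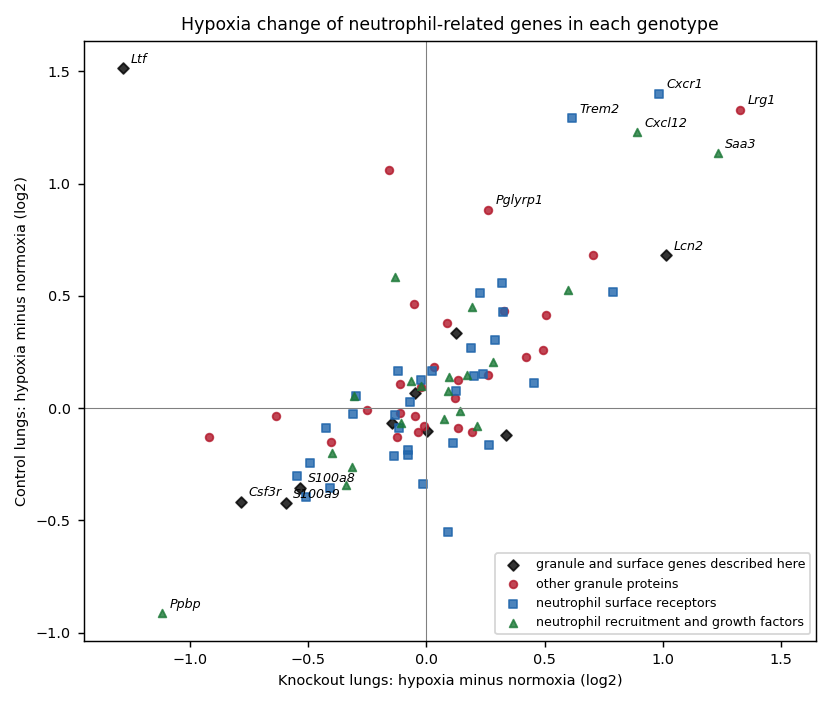
Hypoxia minus normoxia difference (log2) in KO lungs, horizontal, and in control lungs, vertical, for the 10 genes (diamonds), other granule protein genes (circles), neutrophil surface receptor genes (squares) and recruitment and growth factor genes (triangles). Lrg1, Cxcr1, Cxcl12 and Lcn2 lie at the upper right, S100a8, S100a9 and Csf3r at the lower left, and Ltf at -1.28 and 1.51.

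No difference between KO and control lungs passed the test for any of the 10 genes. Between KO and control lungs 0 of the 10 genes were called in hypoxia, where 0% of all genes were called and 1259 had an unadjusted p under 0.05 (limma). In normoxia 0 of the 10 were called, where 0.00405% of all genes were called and 1793 had an unadjusted p under 0.05. With both oxygen states together 0 of the 10 and 0% of all genes were called, with 1053 genes at an unadjusted p under 0.05. The arrays did not overlap for 2 of the 10 in hypoxia, Ngp (-0.24 ± 0.10) and Camp (-0.09 ± 0.10), both lower in KO lungs, where 9.74% of all genes did not overlap (4.55% higher, 5.19% lower). In normoxia 3 of the 10 did not overlap, where the share was 11.7% (5.46% higher, 6.22% lower): Ltf was higher in KO lungs, and Lcn2 (-0.28 ± 0.18) and Trem1 (-0.36 ± 0.15) were lower. The Ltf difference in normoxia was 2.11 ± 0.60, 4.32-fold (adjusted p = 0.569, unadjusted p = 0.00453, limma; exact permutation p = 0.1, the smallest for 3 arrays against 3).

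S100a8 and S100a9 differed between KO and control lungs by -0.19 ± 0.11 and -0.14 ± 0.11 in hypoxia, and by -0.01 ± 0.11 and 0.03 ± 0.11 in normoxia. Lcn2 differed by 0.05 ± 0.18 in hypoxia, and Csf3r by -0.35 ± 0.20 in hypoxia and 0.01 ± 0.20 in normoxia. The adjusted p of all these values was 0.762 or more (limma). A difference that misses the threshold with 3 arrays a group does not show that the genotypes were alike.

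The size of the hypoxia change was also compared between genotypes, as the change in KO lungs minus that in control lungs. Of the 10 genes 0 passed, where 0.00405% of all genes did and 2037 had an unadjusted p under 0.05 (limma). The difference was -2.80 ± 0.85 for Ltf (adjusted p = 0.574; exact permutation p = 0.025), 0.46 ± 0.21 for Trem1 (adjusted p = 0.603), 0.33 ± 0.25 for Lcn2 (adjusted p = 0.744), -0.37 ± 0.29 for Csf3r (adjusted p = 0.761), -0.18 ± 0.16 for S100a8 (adjusted p = 0.785) and -0.17 ± 0.16 for S100a9 (adjusted p = 0.796, limma). Thus S100a8, called in KO lungs and not in control lungs, was not shown to differ between them. The permutation p of Ltf came from regrouping oxygen labels within each genotype. It therefore tests for no oxygen effect in either genotype, and not for equal changes.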

How the data were processed

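RNA of whole perfused mouse lung was measured on 12 Affymetrix arrays. The authors deposited a log2 value for every probe set on each array, made with RMA per the submitters' processing notes. The sources used here do not state a probe annotation version or a filter. Of 25428 probe sets, 24705 had 1 gene symbol in the platform annotation, 723 had none and 0 had several; 1 duplicate was dropped, which left 24704 genes with no filter on low values. Groups follow the labels, which give no scan or batch. Each gene was fitted in limma 3.58.1 (R 4.3.3) as 4 group means with 7 contrasts and empirical Bayes moderation, and p-values were Benjamini-Hochberg adjusted over all genes, with calls under 0.05. Single values also had two-sided exact permutation tests (smallest p 0.1 for 3 arrays against 3, 400 regroupings over both genotypes). Replicates are taken as separate mice because the design counts animals, and the number of arrays limits the precision.

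Genes of the wider lists were named by the lowest adjusted p over the 4 comparisons within a genotype or oxygen state, up to 4 per list, plus genes that define a cell type; any other gene named was chosen after its values were seen. Genes most like S100a8 and Mpo were the 6 with the highest Pearson r among genes with an SD of at least 0.3. The 10 genes and the lists were chosen with earlier results of these data known. Alternatives were limma-trend, robust moderation, a filter at the median level, a fit of the compared groups alone, a replicate block, array weights, leaving out arrays, and the Y-linked or nuclear RNA mean as a covariate. Promoters came from a RefSeq table in which all 10 genes were found. The limma test alone was checked on simulated data. The planted changes were larger than those reported over both genotypes for the 10 genes, so the check does not cover changes of that size.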

Additional observations from a re-analysis of the deposited data

Results flagged for a closer look

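Ltf was singled out as the 1 of the 10 genes with an unadjusted permutation p under 0.05 for the difference in hypoxia change between genotypes, a difference that did not pass over all genes. The change in KO lungs minus that in control lungs was -2.80 on the log2 scale (limma adjusted p = 0.574), and all alternatives kept the sign. The two-sided permutation p of 0.025 is the value by which Ltf was picked, so it gives no separate support. Its regroupings exchanged oxygen labels within each genotype, which tests for no oxygen effect in either genotype and not for equal changes. The difference in change ranged from -3.43 without hypoxic KO replicate 3 to -2.11 without hypoxic KO replicate 2. Groups of 3 arrays were too small for a test of single outlying arrays.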

How the results depend on the processing

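The hypoxia changes of S100a8, S100a9 and Lcn2 over both genotypes kept their direction under every alternative that tested them. Their calls held under all of these but the nuclear RNA covariate, which itself differed with oxygen and so is poorly separated from it. The level filter tested Lcn2, Ltf and Csf3r of the 10. The causes of the lost calls were not tested. In KO lungs the number of the 10 genes called was 1 under the level filter (3 of them tested), 0 with a replicate block, 0 without the 2 Ucp1-high arrays, 1 with the Y-linked covariate, 0 with the nuclear covariate and 0 to 1 when 1 array was left out; all genes called were 40, 51, 166 and 93 under the block, without the Ucp1-high arrays and with the 2 covariates, 508 with array weights and 71 to 148 without 1 array. In control lungs the genes called of the 10 were 1 under the filter, 0 in a fit of those groups alone, 1 with the block, 1 with array weights, 1 without the Ucp1-high arrays, 0 with either covariate and 0 to 3 without 1 array; all genes called were 1100 in the fit of those groups alone, 1794 with the Y-linked covariate, 0 with the nuclear covariate and 808 to 3920 without 1 array. Over both genotypes 2 of the 10 were called under the filter, 0 with the nuclear covariate and 4 to 5 without 1 array, and all genes called were 2180 and 9 with the Y-linked and nuclear covariates and 2254 to 4426 without 1 array. For KO minus control, genes called were 1 in hypoxia in the fit of those groups alone, 0 in normoxia in that fit, with the block, without the Ucp1-high arrays and without any 1 array, and 1 over both oxygen states with limma-trend or the nuclear covariate; for the difference of changes they were 0 with the block, without the Ucp1-high arrays or with the Y-linked covariate, 2 with array weights or the nuclear covariate, and 0 to 3 without 1 array.

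Deviations of same-numbered arrays correlated at -0.25 to 0.28, and the numbers were not taken as pairs. Between normoxic KO and control lungs the correlations were 0.086, 0.28 and 0.18 for numbers 1, 2 and 4. The Y-linked means of these same-numbered normoxic arrays were also close, at 2.98 and 3.04, 6.66 and 6.69, and 6.12 and 6.18. In hypoxia they were apart, at 5.36 in KO and 3.08 in control lungs for number 2, and 3.26 and 5.34 for number 4. The replicate block gave -0.15 for Ltf over both genotypes; every value that changed sign was uncalled. For hypoxia in KO lungs Elane was at -0.015 with array weights, -0.022 without the Ucp1-high arrays and -0.0092 with the Y-linked covariate, and ranged from -0.031 to 0.046 without 1 array, as Camp did from -0.096 to 0.027. For hypoxia in control lungs the nuclear covariate gave -0.045 for Camp and 0.0073 for Mpo, and without 1 array Camp ranged from -0.0025 to 0.16 and Trem1 from -0.29 to 0.0062. Over both genotypes Camp was at -0.00089 with array weights, -0.019 with the Y-linked and -0.065 with the nuclear covariate (-0.025 to 0.057 without 1 array), and Ltf at -0.16 with the Y-linked covariate (-0.20 to 0.46). For KO minus control in hypoxia Elane was at -0.019 with array weights (-0.065 to 0.074 without 1 array), and without 1 array Lcn2 ranged from -0.17 to 0.17, Ltf from -1.32 to 0.0072 and Trem1 from -0.028 to 0.27. In normoxia Mpo was at -0.0015 with array weights and -0.064 without the Ucp1-high arrays (-0.064 to 0.12 without 1 array), Csf3r at -0.031 without the Ucp1-high arrays (-0.19 to 0.25) and Camp at -0.026 with the nuclear covariate (-0.052 to 0.12); S100a8 ranged from -0.087 to 0.051, S100a9 from -0.057 to 0.11 and Ngp from -0.16 to 0.050. The low level of the genes under 4 limits what can be read from them.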
